A study of Mus musculus with 36 samples.

Results

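The genes described here encode the Bcl2 family of apoptosis regulators and the mitophagy receptors related to it. They were measured in mouse left ventricle after induced activation of a MAP kinase pathway in heart muscle cells. The list holds 10 genes, namely the survival factors Bcl2, Bcl2l1 and Mcl1, the pore formers Bax and Bak1, the BH3-only killers Bbc3, Pmaip1 and Bcl2l11, and the mitophagy receptors Bnip3 and Bnip3l. Each gene was read from its brightest probe set by mean over the 36 arrays, among probe sets annotated to that gene alone. By this rule 8 of the 10 listed genes had a probe set, out of 18193 genes so named in the series. Bax had no probe set named in the annotation used and was not analysed here. Bnip3l shared all 3 of its probe sets with the pseudogene Bnip3l-ps, so its signal is given as Bnip3l/Bnip3l-ps and is left out of the counts. Pmaip1 was too dim for the filter on low signals, which left 7 listed genes in the tests.

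Mice carrying HRas-v12, MKK3bE or MKK7D behind a floxed cassette and the alpha myosin heavy chain promoter, which is active in cardiac muscle, were crossed to mice with Mer-Cre-Mer under the same promoter, in a C57 black background. The products are a Ras that stays switched on (HRas-v12) and constantly active kinases upstream of p38 (MKK3bE) and of JNK (MKK7D). Double transgenic mice received tamoxifen at 20 mg/kg on each of 3 days at 12 weeks of age, and so did their littermate controls, which the labels call non-transgenic. Left ventricles were taken early, 4 to 7 days after the first injection, or late, at 2 to 4 weeks. The early HRas-v12 arrays were 2 female and 3 male, the late HRas-v12 arrays 3 female and 3 male, the early MKK3bE arrays 2 female, and the late MKK3bE arrays 2 female and 3 male. All of these were set against 3 control females and 3 control males, for which the labels give no time point. The MKK7D arrays were 3 early and 3 late females, set against 3 early and 3 late female controls of that line.

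Bcl2 family proteins decide whether the outer membrane of mitochondria is opened, which releases cytochrome c and starts the caspase cascade. Survival factors bind and restrain the pore formers, and BH3-only proteins block the survival factors or activate the pore formers. Bnip3 and Bnip3l sit in the same membrane and tether mitochondria to the forming autophagosome, and Bnip3 is known in heart muscle as a gene induced by low oxygen.

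Each array gave 1 signal per probe set in arbitrary units on a linear scale, with a trimmed mean of 2500 on every array, and pairwise correlations between arrays were 0.8892 to 0.9624. Changes are differences of log2(signal + 32), averaged over the sexes where both were present, with adjusted p-values from limma over 12627 genes and a threshold of 0.05. All 10 cardiomyocyte markers passed the filter. Esr1, which reads the estrogen receptor part of Mer-Cre-Mer, and sex-linked genes went against the labels of 6 arrays. Esr1 was 12437 to 155949 on the other transgenic arrays and 294 to 7943 on the other control arrays. It was 688 on the array labelled as HRas-v12 female early replicate 3, 2915 and 1327 on those labelled HRas-v12 male late replicates 1 and 3, and 106402 and 91291 on those labelled MKK7D control female late replicates 8 and 9. Replicate 1 of the early MKK7D controls, labelled female, had an Xist signal of 2316 and a Y-linked Eif2s3y signal of 6018. The comparisons that use these arrays were repeated without them, an alternative chosen after the data were seen. It left a single array in each of some groups, namely HRas-v12 female early replicate 1, HRas-v12 male late replicate 4 and MKK7D control female late replicate 10. The spread of those groups was then taken to be like that of the other groups. Values of this alternative stand beside the called results and beside those it moved most. The labels do not say that replicates were separate animals, so the spread behind the p-values is that of these arrays and may be technical. In whole ventricle RNA, fewer cells of a type and less RNA per cell cannot be told apart.

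Early HRas-v12 hearts had higher signals of the survival factor Bcl2l1 and the pore former Bak1 than control hearts, by 1.77-fold and 1.85-fold. The survival factor Mcl1 was lower by 1.27-fold, the BH3-only genes Bbc3 and Bcl2l11 by 1.60-fold and 1.66-fold, and the mitophagy receptor Bnip3 by 1.46-fold. In all, 6 of the 7 genes tested were called, where 33.8% of all genes tested were. The split was 2 higher against a background of 15.1%, and 4 lower against 18.7%. The ranges of the 5 HRas-v12 and 6 control arrays overlapped for all 7 genes, and 4.27% of all genes had ranges that did not. None of the 6 calls held in the fit without the array labelled as HRas-v12 female early replicate 1. The log2 changes there were +0.66 for Bcl2l1, -0.25 for Mcl1, +0.69 for Bak1, -0.75 for Bbc3, -0.60 for Bcl2l11 and -0.26 for Bnip3. The female side of that fit was the array labelled replicate 3 alone, whose Esr1 signal of 688 was at the level of controls. In the fit without the 6 arrays whose labels failed the check, the female side was replicate 1 alone. Males taken alone, a comparison chosen after the values were seen, had 5 of 7 called, where 38.1% of all genes were. The count over both sexes was 3 without control female replicate 1 and 3 without control male replicate 5. Without the 6 arrays whose labels failed the check it was 5, and with the replicate number as a block it was 1.

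Markers of cell types moved with the same groups. In early HRas-v12 hearts 10 of 10 cardiomyocyte and 9 of 10 endothelial markers fell, while 8 of 14 macrophage and 6 of 10 fibroblast markers rose. The summed cardiomyocyte marker signal was 991919 to 1444989 in early HRas-v12 hearts and 1527739 to 2055866 in controls, ranges that did not overlap. Control groups differed in this sum as well, with 1242600 to 1564216 in early and 1082092 to 1427412 in late MKK7D controls. Replicate 1 of the early and replicates 8 and 9 of the late MKK7D controls had failed the label check. The endothelial sums were 45805 to 89363 in early HRas-v12 hearts and 72364 to 103952 in controls. For macrophage markers they were 65466 to 258513 in early HRas-v12 hearts and 70429 to 106535 in controls, and for fibroblast markers 228325 to 618171 in early HRas-v12 hearts and 217311 to 285684 in controls. In early MKK3bE hearts 5 of 10 fibroblast markers rose, with sums of 534268 and 633207 against 217311 to 285684 in control females. The early MKK3bE sums lay wholly below those of control females for 4 other lists, where 42.5% of all genes had non-overlapping groups. They were 1291564 to 1582179 against 1699570 to 2055866 in control females for cardiomyocytes, and 65926 to 77872 against 78586 to 103952 in control females for endothelium. For smooth muscle and pericytes they were 100267 to 118567 against 126166 to 183195 in control females, and for adipocytes 85246 to 90815 against 111448 to 132436 in control females. Of these markers 1 endothelial and 1 smooth muscle or pericyte marker were called lower, and 0 of 10 cardiomyocyte and 0 of 3 adipocyte markers. MKK7D controls of both times also lay wholly below control females in the cardiomyocyte sum. Their adipocyte sums were 90449 to 102065 early and 68960 to 85977 late, again below control females. For endothelium and for smooth muscle and pericytes they lay within the range of control females. In late MKK3bE hearts 5 of 10 fibroblast markers rose and 0 of 10 cardiomyocyte markers were called. There 3 of 9 smooth muscle and pericyte markers fell and 0 rose, where 5.39% of all genes were called lower. Fibroblast sums were 255940 to 367405 in early and 224655 to 548779 in late MKK7D controls. The fibroblast sums in late MKK3bE hearts were 343512 to 484092, all above the controls they were compared with. In that comparison 10.1% of all genes had groups that did not overlap. The cardiomyocyte sums were 1346147 to 1638243, which overlapped those of the controls. In late HRas-v12 hearts, where no member was called, 8 of 10 cardiomyocyte markers fell and 4 of 10 fibroblast markers rose. Of the smooth muscle and pericyte markers 3 of 9 rose and 3 fell in early HRas-v12 hearts. Few markers of lymphocytes (2 of 10), neutrophils (4 of 8), red blood cells (2 of 7) and adipocytes (3 of 6) passed the filter, and of these the only ones called were adipocyte markers, 1 lower in each of early and late HRas-v12 hearts. The part of these shifts in the members' changes was not tested.

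**Figure D1:**
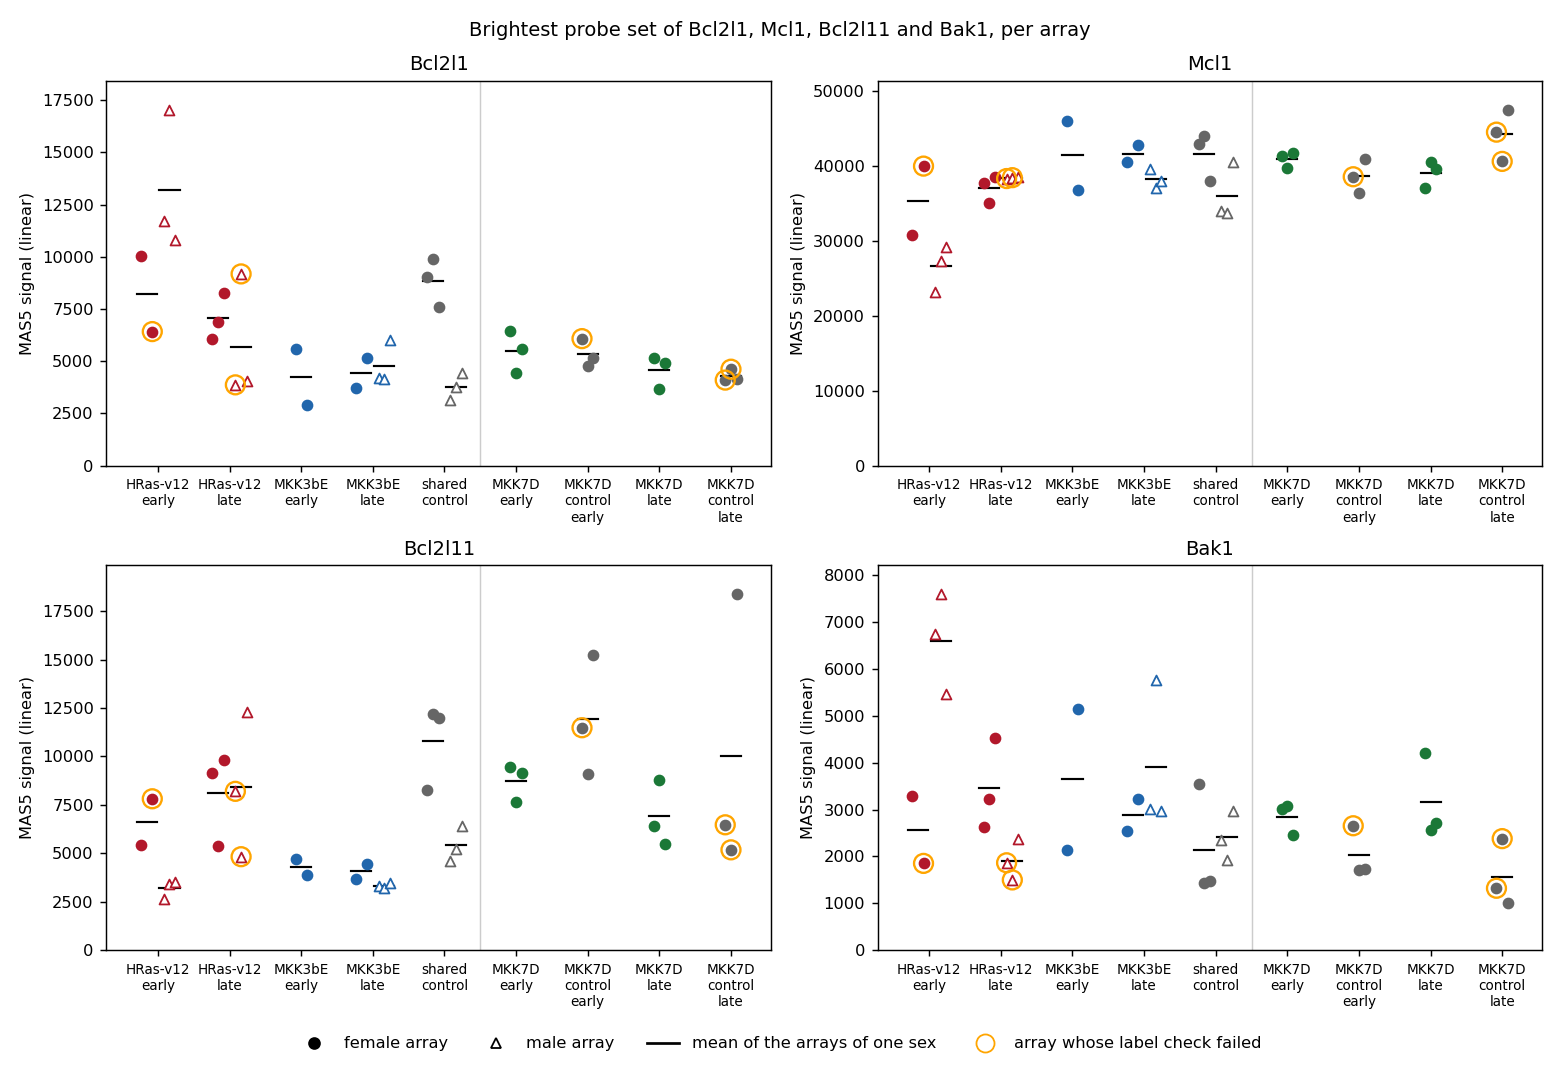
MAS5 signal (linear, arbitrary units) of Bcl2l1, Mcl1, Bcl2l11 and Bak1 on each array, by transgene and time, with circles for female and triangles for male arrays. Bars are the mean of the arrays of 1 sex, and orange rings mark the 6 arrays whose label check failed. The 3 male early HRas-v12 arrays read 10811 to 17048 for Bcl2l1, above every other array, and the late MKK3bE arrays read 3205 to 4448 for Bcl2l11, below all 6 control arrays.

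Bcl2l1, which encodes the survival protein Bcl-xL, read 10032 and 6417 in female and 11730, 17048 and 10811 in male early HRas-v12 hearts, against 9034, 9880 and 7598 in control females and 3161, 3761 and 4414 in control males. The 3 male arrays stood above every other array of the series, while the female arrays fell on either side of the control females. The log2 change over both sexes was +0.82 (SE 0.20, adjusted p = 0.00281 in limma). It was +0.66 (adjusted p = 0.0555) without the array labelled as HRas-v12 female early replicate 1, and +0.985 (adjusted p = 0.000292) without the 6 arrays that failed the check. Taken apart by sex, a comparison chosen after the values were seen, it was +1.78 in males (SE 0.27, adjusted p = 2.18e-05, 3.43-fold) and -0.13 in females (SE 0.30, adjusted p = 0.892). The male change exceeded the female change by 1.91 (SE 0.40, adjusted p = 0.0211), and 1.1% of all genes (139) differed in this way between the sexes. That count of genes was 4 without the array labelled as HRas-v12 female early replicate 3 and 1393 without female replicate 1, and 19 to 237 without any other 1 array. The difference lost its call in 4 of the 11 fits that left out 1 array, with adjusted p = 0.309 without the array labelled as HRas-v12 female early replicate 3, 0.0525 without male replicate 1, 0.0610 without control female replicate 1 and 0.0547 without control female replicate 4. Without the 6 arrays that failed the check the difference was 1.59 (adjusted p = 0.0602). The control groups differed as well. Control males were lower than control females by 1.22 on the log2 scale (SE 0.27), with ranges that did not overlap (as for 14.5% of all genes), although the adjusted p was 0.0859 and no gene was called between these groups (1149 genes had an unadjusted p under 0.05). Over both sexes, the 2 further probe sets of Bcl2l1 moved the same way in early HRas-v12 hearts, by +0.57 and +0.75. In females alone they read +0.08 and +0.43, against -0.13 for the brightest set. Their differences between the sexes were 0.65 and 0.99, smaller than the 1.91 of the brightest set. With all probe sets averaged the sex difference was 1.18 and was not called (adjusted p = 0.0943 in limma).

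At the late time Bcl2l1 was 6082, 6871 and 8259 in HRas-v12 females and 3867, 9178 and 4060 in HRas-v12 males. Against controls of the same sex, 8259, 3867 and 4060 lay within the range. The values 6082 and 6871 lay below all control females (7598 to 9880). The value 9178, from replicate 3, which failed the label check, lay above all control males (3161 to 4414). The log2 change over both sexes was +0.08 (SE 0.19, adjusted p = 0.819), and -0.10 without the 6 arrays that failed the check. The male change exceeded the female change by 0.81, which was not called (SE 0.38, unadjusted p = 0.0438, adjusted p = 0.619 in limma). Late HRas-v12 hearts were lower than early ones by 0.74 on the log2 scale (SE 0.20, adjusted p = 0.0177). That call ended without the array labelled as HRas-v12 female early replicate 1 (adjusted p = 0.175) or HRas-v12 male late replicate 1 (adjusted p = 0.0595), and the difference was -1.09 (adjusted p = 0.00110) without the 6 arrays that failed the check. In early MKK3bE females Bcl2l1 was 5570 and 2883, below all 3 control females (log2 change -1.13, SE 0.30, adjusted p = 0.0244). Its signals in late MKK3bE hearts were 3697 and 5131 in females and 4179, 4142 and 5992 in males, a change of -1.01 in females (adjusted p = 0.0887) and +0.33 in males (adjusted p = 0.596), neither of them called. MKK7D hearts read 4430 to 6424 early and 3655 to 5169 late, against 4761 to 6080 in early and 4095 to 4616 in late MKK7D controls. Ordered by mean log2 signal over the 13 groups, male early HRas-v12 hearts came first and control males last, and only the step below the first group separated ranges that did not overlap. The female controls of the MKK7D line at the early time and the control females of the other lines are separate groups of littermates. Between them limma called 0 of 7 members and 1.47% of all genes, with 1 member, Bcl2l1, and 2110 of all genes at an unadjusted p under 0.05. Early MKK7D controls were below control females in Bcl2l1, with a log2 difference of -0.73 (SE 0.27, adjusted p = 0.165) and ranges that did not overlap, as 23.7% of all genes had. Without the 1 of these controls that failed the check the difference was -0.83 (adjusted p = 0.0878).

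Mcl1, the survival factor on which adult heart muscle depends, read 30742 and 39992 in female and 23238, 27312 and 29228 in male early HRas-v12 hearts, against 42918, 43978 and 38022 in control females and 34008, 33703 and 40485 in control males. All 5 HRas-v12 arrays lay under the mean of their sex-matched controls, and the 3 male arrays were the 3 lowest of the series. The log2 change was -0.34 (SE 0.081, adjusted p = 0.00215), with -0.44 in males (adjusted p = 0.00221) and -0.24 in females (adjusted p = 0.389). It was -0.25 (adjusted p = 0.0598) without the array labelled as HRas-v12 female early replicate 1 and -0.44 (adjusted p = 0.000302) without the 6 arrays that failed the check. The other Mcl1 probe sets did not all follow, since 3 of the 5 moved down and the whole range was -0.44 to +0.39. The brightest set belongs to a class that Affymetrix marks as open to cross-hybridisation.

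Late HRas-v12 hearts held 35066 to 38486 units of Mcl1 signal in females and 38331 to 38545 in males, close to the controls (log2 change -0.03, SE 0.077, adjusted p = 0.809). Mcl1 was higher in late than in early HRas-v12 hearts, by +0.31 (SE 0.081, adjusted p = 0.0146), a call that ended without the array labelled as HRas-v12 female early replicate 1 (adjusted p = 0.195) or HRas-v12 male early replicate 1 (adjusted p = 0.0527). Without the 6 arrays that failed the check it was +0.41 (adjusted p = 0.00470). MKK3bE hearts read 36865 to 45977 early and 37007 to 42773 late. Their changes were -0.01 early (adjusted p = 0.960) and +0.05 late (adjusted p = 0.772). In late MKK7D hearts Mcl1 was 37046, 40515 and 39625, under all 3 late MKK7D controls at 44527, 40622 and 47548, with a change of -0.18 that was not called (SE 0.11, adjusted p = 0.999). In that comparison 12.5% of all genes had groups that did not overlap. The first 2 of those controls failed the label check, and without them the change was -0.28 (adjusted p = 0.323). Late MKK7D controls had the highest and male early HRas-v12 hearts the lowest group mean, and only the last step separated ranges that did not overlap.

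Bcl2, the survival factor after which the family is named, was not called in any comparison. Its signals ran over 1799 to 3723 in early HRas-v12, 1559 to 4147 in late HRas-v12, 1857 to 3614 in early MKK3bE and 2294 to 4319 in late MKK3bE hearts, against 1596 to 2815 in the 6 controls. Late MKK3bE hearts averaged 3312 ± 722 against 2185 ± 471 in controls (SD, n = 5 and 6), a log2 change of +0.59 (SE 0.26, adjusted p = 0.141). That change passed the threshold when only the groups compared entered the fit (adjusted p = 0.0394) and when all probe sets of a gene were averaged (adjusted p = 0.0344). Early MKK7D hearts read 1985, 3127 and 2137, each above the early MKK7D controls at 1844, 1707 and 1217, with a change of +0.59 that was not called (SE 0.35, adjusted p = 0.571). In that comparison 23.4% of all genes had groups that did not overlap. Without the arrays that failed the check the Bcl2 change was +0.70 in early MKK7D hearts (adjusted p = 0.284) and +0.90 in late ones (adjusted p = 0.183), the late one being -0.10 with them (adjusted p = 0.999). No step in the order of its 13 groups separated ranges that did not overlap.

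Bak1, which together with Bax forms the pore in the outer membrane, read 3282 and 1850 in female and 6750, 7606 and 5458 in male early HRas-v12 hearts, against 3541, 1424 and 1469 in control females and 2348, 1925 and 2963 in control males. The 3 male arrays were far above the control males, and the female arrays lay inside the range of control females. The log2 change was +0.89 over both sexes (SE 0.27, adjusted p = 0.0121), with +1.45 in males (SE 0.36, adjusted p = 0.00235) and +0.33 in females (SE 0.40, adjusted p = 0.757). The difference between the sexes was +1.12 and was not called (SE 0.54, adjusted p = 0.257). Without the array labelled as HRas-v12 female early replicate 1 the change was +0.69 (adjusted p = 0.135), and without the 6 arrays that failed the check it was +1.10 (adjusted p = 0.00355). The further Bak1 probe set moved by +0.36.

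Bak1 was above the sex-matched control mean on all 5 late MKK3bE arrays, which read 2536 and 3230 in females and 3011, 5769 and 2966 in males, but the change of +0.59 was not called (SE 0.27, adjusted p = 0.157). It passed without control female replicate 4 (+0.81, adjusted p = 0.0483) and with all probe sets averaged (+0.76, adjusted p = 0.0415). Late MKK7D hearts read 4218, 2553 and 2706, each above the late MKK7D controls at 1319, 2379 and 1002. Their change was +1.05 (SE 0.36, unadjusted p = 0.00668, adjusted p = 0.836), where 12.5% of all genes had groups that did not overlap. The first 2 of those controls failed the label check, and without them the change was +1.59 (adjusted p = 0.0622) with 1 control array left. Group means spanned 2.13 on the log2 scale, with male early HRas-v12 hearts at the top and late MKK7D controls at the bottom, yet every neighbouring pair of groups overlapped.

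The BH3-only gene Bcl2l11, which encodes Bim, was lower than control in early HRas-v12 and in early and late MKK3bE hearts. Its signals were 5402 and 7815 in female and 2660, 3429 and 3506 in male early HRas-v12 hearts, against 8271, 12172 and 11978 in control females and 4593, 5227 and 6421 in control males. Within each sex the HRas-v12 and control ranges did not overlap, as was true of 22.9% of all genes in females and 48% in males, whereas over both sexes they did. Control males were themselves below control females (log2 difference -0.98, SE 0.34, adjusted p = 0.323). The log2 change was -0.73 (SE 0.25, adjusted p = 0.0259), with -0.71 in females (adjusted p = 0.424) and -0.75 in males (adjusted p = 0.0783), neither called within its sex. The difference between the sexes was -0.04 (SE 0.50, adjusted p = 0.974). Without the 6 arrays that failed the check the change was -0.86 (adjusted p = 0.000920). All 4 further probe sets moved down, by 0.13 to 0.88. The call ended in 5 of 11 fits that left out 1 array, those without the arrays labelled HRas-v12 female early replicate 1 (adjusted p = 0.172), HRas-v12 male early replicate 1 (0.0620), control female replicates 1 (0.0560) and 2 (0.0521) and control male replicate 5 (0.0584).

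In early MKK3bE females Bcl2l11 read 4706 and 3867, with a log2 change of -1.31 against control females (SE 0.37, adjusted p = 0.0341, 2.48-fold lower). In late MKK3bE hearts it read 3681 and 4448 in females and 3319, 3205 and 3441 in males, with a mean of 3619 ± 496 against 8110 ± 3317 in controls (SD, n = 5 and 6). All 5 late MKK3bE arrays were below the lowest control array, and 10.1% of all genes had groups that did not overlap. The late log2 change was -1.04 (SE 0.25, adjusted p = 0.00935, 2.05-fold lower). It was -1.39 in females (adjusted p = 0.0564) and -0.69 in males (adjusted p = 0.317), and the difference between them, +0.70, was not called (adjusted p = 0.994). The late call ended without MKK3bE female late replicate 2 (-0.97, adjusted p = 0.0572) and with the replicate number as a block (-0.93, adjusted p = 0.0732), and held in the other 10 fits that left out 1 array. All 4 further probe sets moved down in both MKK3bE comparisons.

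In late HRas-v12 hearts Bcl2l11 was not called, with 9132, 5349 and 9796 in females and 8199, 4822 and 12299 in males (log2 change +0.05, SE 0.24, adjusted p = 0.907). MKK7D hearts read 9480, 7634 and 9133 early, against 11485, 9074 and 15228 in early MKK7D controls (log2 change -0.42, SE 0.34, adjusted p = 0.692). Late MKK7D hearts read 6411, 8789 and 5498, against 6470, 5176 and 18401 in late MKK7D controls. The 2 low values among those late controls belong to the arrays whose Esr1 signal went against the label. The late MKK7D change was -0.33 with them (SE 0.34, adjusted p = 0.999) and -1.44 without the arrays that failed the check (adjusted p = 0.0126), where a single late control remained and its spread was taken to be like that of the other groups. Early MKK7D controls had the highest and male early HRas-v12 hearts the lowest group mean, and only the step between female and male late MKK3bE hearts separated ranges that did not overlap.

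Bbc3, which encodes the BH3-only protein Puma, was dimmer. Its signals were 1093 and 896 in female and 778, 281 and 429 in male early HRas-v12 hearts, against 1177, 1463 and 873 in control females and 856, 915 and 1492 in control males. All 3 male arrays lay below the control males, and the female arrays lay inside the range of control females. The log2 change was -0.68 (SE 0.25, adjusted p = 0.0402), with -1.15 in males (SE 0.34, adjusted p = 0.00875) and -0.21 in females (SE 0.38, adjusted p = 0.857). The call ended in 7 of the 11 fits that left out 1 array, with adjusted p of 0.0629 to 0.121, namely those without HRas-v12 female early replicate 1 or 3, HRas-v12 male early replicate 2 or 3, control female replicate 1 or 4, or control male replicate 5. It also ended without the 6 arrays that failed the check (-0.61, adjusted p = 0.0621). Bbc3 was 1373 to 1582 in late HRas-v12 females and 452 to 1562 in late HRas-v12 males, and no comparison other than early HRas-v12 called it. Bbc3 had 1 probe set, so no second reading was possible.

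Pmaip1, which encodes the BH3-only protein Noxa, had signals of 8 to 869 with a median of 72, below the filter at about 414.3. Its highest values were 869 on the array labelled as HRas-v12 male late replicate 3 and 405 on MKK3bE male late replicate 4. In the fit without the filter its log2 changes were +0.47 in early and +1.28 in late HRas-v12 hearts and +2.10 in early and +0.99 in late MKK3bE hearts. None of these was called (adjusted p = 0.625, 0.159, 0.183 and 0.348), and values this low carry no statement on presence.

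The mitophagy receptor Bnip3 read 28075 and 61943 in female and 17196, 38006 and 20615 in male early HRas-v12 hearts, against 40907, 62534 and 53792 in control females and 33139, 44992 and 45340 in control males. The value of 61943 came from the array labelled as HRas-v12 female early replicate 3, whose Esr1 signal was at the level of controls. Of the other 4 arrays, 3 lay below all 6 controls. The log2 change was -0.54 (SE 0.19, adjusted p = 0.0257), with -0.77 in males (SE 0.25, adjusted p = 0.0148) and -0.31 in females (SE 0.28, adjusted p = 0.664). It was -0.83 (adjusted p = 0.00132) without the 6 arrays that failed the check and -0.26 (adjusted p = 0.394) without the array labelled as HRas-v12 female early replicate 1. It also lost its call without HRas-v12 male early replicate 1 (adjusted p = 0.0897) or 3 (0.0594), control female replicate 1 (0.0685) or control male replicate 2 (0.0546) or 5 (0.0544). Bnip3 had 1 probe set.

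Late HRas-v12 females had Bnip3 signals of 35734, 22932 and 29563, all below the 3 control females, and late HRas-v12 males had 48192, 48848 and 48642, all above the 3 control males. The share of all genes with such separate ranges was not counted for these groups. In early HRas-v12 males against control males, also 3 against 3 arrays, it was 48%. Over both sexes the change was -0.29 and was not called (SE 0.18, adjusted p = 0.278). The male change exceeded the female change by 1.09, which did not pass the correction (SE 0.35, unadjusted p = 0.00443, adjusted p = 0.421), and 2 of the 3 male arrays were among those that failed the check. Without the arrays that failed it, the difference was again 1.09 (adjusted p = 0.111). MKK3bE hearts read 64995 and 44352 early, and late 55439 and 64408 in females and 57957, 61600 and 54667 in males. The late MKK3bE change was +0.36 (SE 0.19, adjusted p = 0.218), with all 5 arrays above the sex-matched control mean. MKK7D hearts read 44910 to 54223 early and 40454 to 53995 late, against 39158 to 56393 in early and 51271 to 56492 in late MKK7D controls.

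Bnip3l/Bnip3l-ps was not called in any transgenic group against its control. It averaged 13273 ± 1661 in early HRas-v12 hearts and 14773 ± 2026 in late ones (SD, n = 5 and 6), against 14012 ± 3088 in controls (n = 6). Its early change was -0.03 (SE 0.10, 95% interval -0.24 to +0.18, adjusted p = 0.858), and its 2 further probe sets read -0.36 and -0.28. Late MKK3bE hearts averaged 16390 ± 922 with a change of +0.26 (SE 0.10, adjusted p = 0.102), which passed without control female replicate 2 (+0.33, adjusted p = 0.0423). Late MKK7D hearts read 16202 to 17869, below the late MKK7D controls at 19260 to 20695, where 12.5% of all genes had groups that did not overlap. That change was -0.21 (SE 0.135, adjusted p = 0.999), the further probe sets read -0.27 and -0.14, and control replicates 8 and 9 had failed the label check. Signals of the gene and of its pseudogene cannot be told apart on these probe sets.

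**Figure D2:**
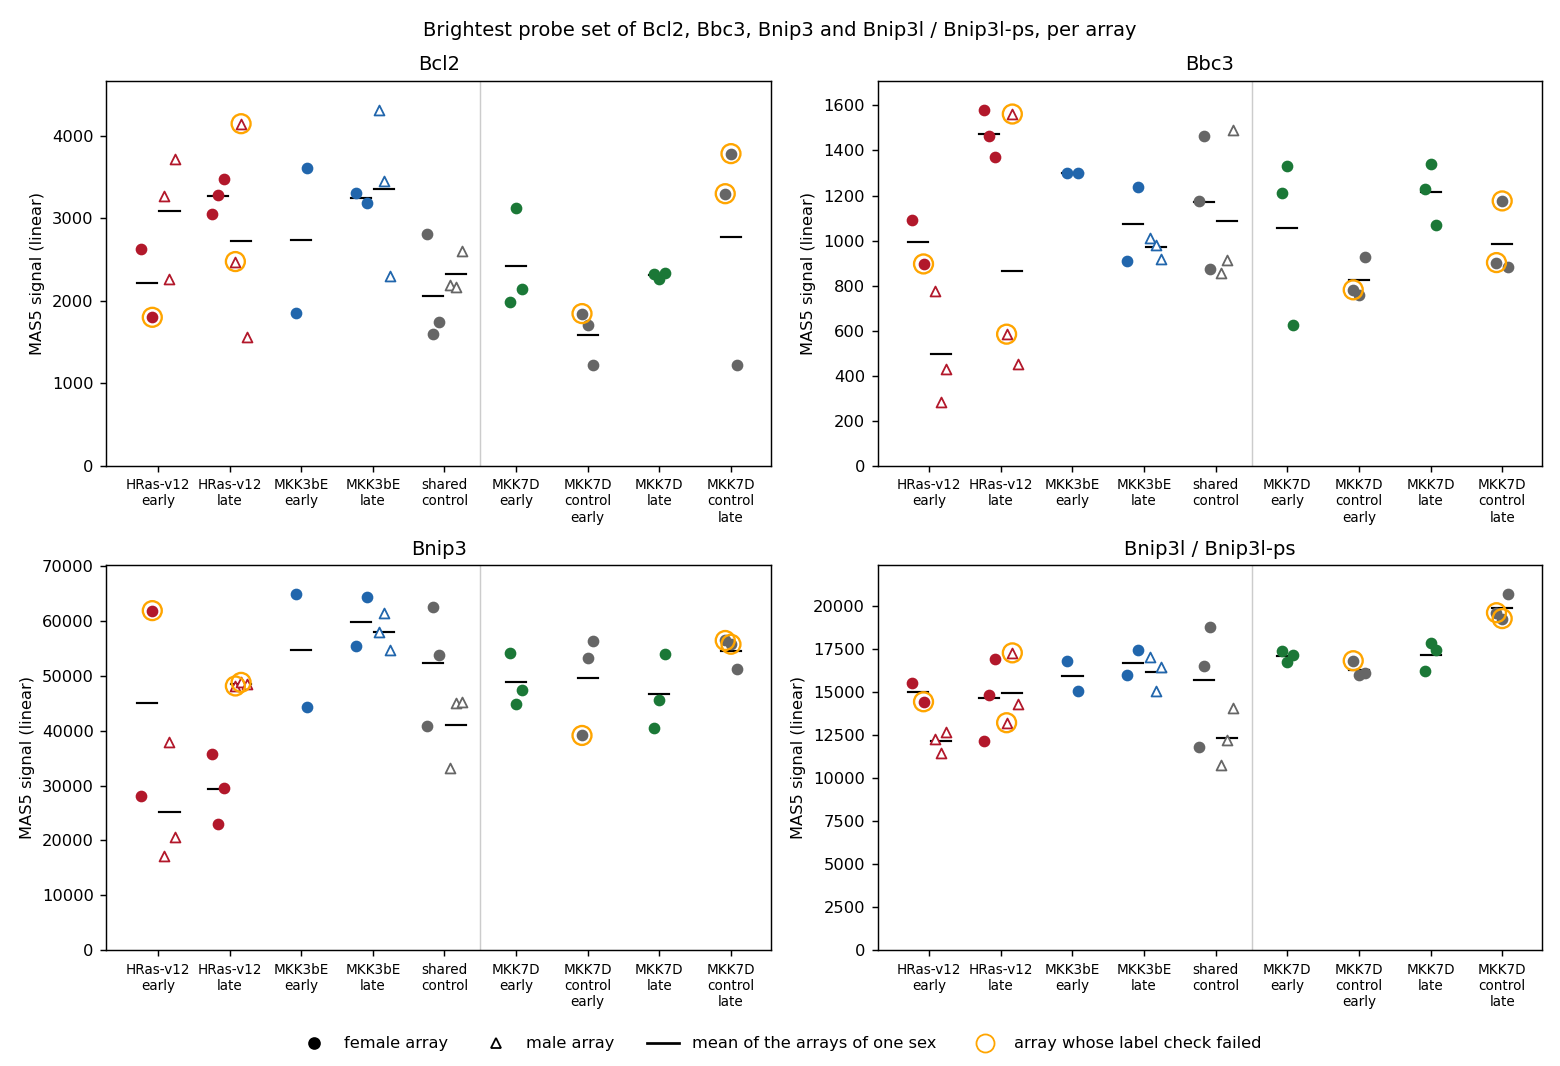
MAS5 signal (linear, arbitrary units) of Bcl2, Bbc3, Bnip3 and Bnip3l/Bnip3l-ps on each array, drawn with the same symbols. Late HRas-v12 females (22932 to 35734) and males (48192 to 48848) sit on opposite sides of their controls for Bnip3. That difference between the sexes was not called.

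The promoters of 3 genes that were lower in early HRas-v12 hearts are shown because each holds a motif of a factor known to act on such genes, the FoxO site GTAAACA or the E-box CACGTG, whose inner ACGTG is also the core of the hypoxia response element. The windows are 300 bases, 250 before to 50 after the start of transcription, in the direction of the gene, from RefSeq on build GRCm38.p6. Bbc3 lies at chr7:16310011-16310310 on the plus strand, Bcl2l11 at chr2:128125788-128126087 on the plus strand and Bnip3 at chr7:138909457-138909756 on the minus strand. Capitals mark the motif, which in Bbc3 reads GTAAACA on the other strand. Counted from the start, its first base lies at -167 in Bbc3, -227 in Bcl2l11 and -108 in Bnip3.
Bbc3: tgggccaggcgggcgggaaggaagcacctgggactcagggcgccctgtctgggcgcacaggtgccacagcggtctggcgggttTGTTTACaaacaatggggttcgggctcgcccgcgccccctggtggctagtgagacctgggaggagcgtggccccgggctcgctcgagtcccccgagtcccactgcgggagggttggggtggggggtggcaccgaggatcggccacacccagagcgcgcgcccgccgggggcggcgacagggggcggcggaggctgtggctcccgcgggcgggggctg
Bcl2l11: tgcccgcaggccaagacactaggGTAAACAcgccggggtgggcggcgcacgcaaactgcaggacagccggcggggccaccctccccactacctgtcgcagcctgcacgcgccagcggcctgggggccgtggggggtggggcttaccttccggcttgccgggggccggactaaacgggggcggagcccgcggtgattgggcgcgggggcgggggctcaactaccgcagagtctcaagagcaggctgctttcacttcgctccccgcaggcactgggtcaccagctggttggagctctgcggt
Bnip3: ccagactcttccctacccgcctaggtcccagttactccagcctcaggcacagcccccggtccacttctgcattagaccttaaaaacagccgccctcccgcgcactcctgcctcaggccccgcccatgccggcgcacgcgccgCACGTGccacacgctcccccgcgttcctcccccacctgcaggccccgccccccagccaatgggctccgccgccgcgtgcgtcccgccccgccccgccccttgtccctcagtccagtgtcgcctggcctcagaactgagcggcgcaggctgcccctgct
The motifs were chosen after the values were seen and were searched on both strands in 13 windows of 8 listed genes, with Bax among them and Pmaip1 not, and in 32851 RefSeq windows of the same length. GTAAACA was in 3.65% of all windows, CACGTG in 7.15% and ACGTG in 19.6%. Bbc3 has 3 windows, and another of them held CACGTG, while the second window of Bcl2l11 held none of the motifs. The other motifs searched, the STAT site TTCNNNGAA (8.3% of all windows) and the AP-1 site TGANTCA (7.81%), were in none of the 13. The window of Bax, which was not measured here, held CACGTG at 2 places and so ACGTG on both strands there. No listed motif was found in the windows of Bcl2l1, Mcl1, Bcl2 and Bak1. A match of letters is a description of the sequence and no evidence of binding.

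Against the 6 of 7 calls in early HRas-v12 hearts, late HRas-v12 hearts had 0 of 7 in limma, none of them with an unadjusted p under 0.05, where 9.52% of all genes were called. Early MKK3bE hearts had 2 of 7, Bcl2l1 and Bcl2l11, both lower, against 6.26% of all genes (2.78% lower). Both genes had groups that did not overlap, as had 42.5% of all genes with 2 arrays against 3. Bcl2l1 lost this call without MKK3bE female early replicate 2 (adjusted p = 0.366), control female replicate 1 (0.0836) or control female replicate 4 (0.0588). Bcl2l11 lost it without either MKK3bE array (0.121 and 0.217) or without control female replicate 1 (0.102) or 2 (0.0854). Late MKK3bE hearts had 1 of 7, Bcl2l11, against 10.4% of all genes (5.39% lower). MKK7D hearts had 0 of 7 early, where 0.135% of all genes were called, and no member but 1346 genes had an unadjusted p under 0.05. Late MKK7D hearts also had 0 of 7, where 0% of all genes were called. There 1 member, Bak1, had an unadjusted p under 0.05, as had 643 of all genes. Without the arrays that failed the check, late HRas-v12 changes of the 7 genes lay between -0.41 (Bbc3) and +0.39 (Bak1), with adjusted p of 0.371 or more. The late HRas-v12 count stayed 0 in the alternatives tried, and the late MKK7D count became 1 without the arrays that failed the check.

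**Figure D3:**
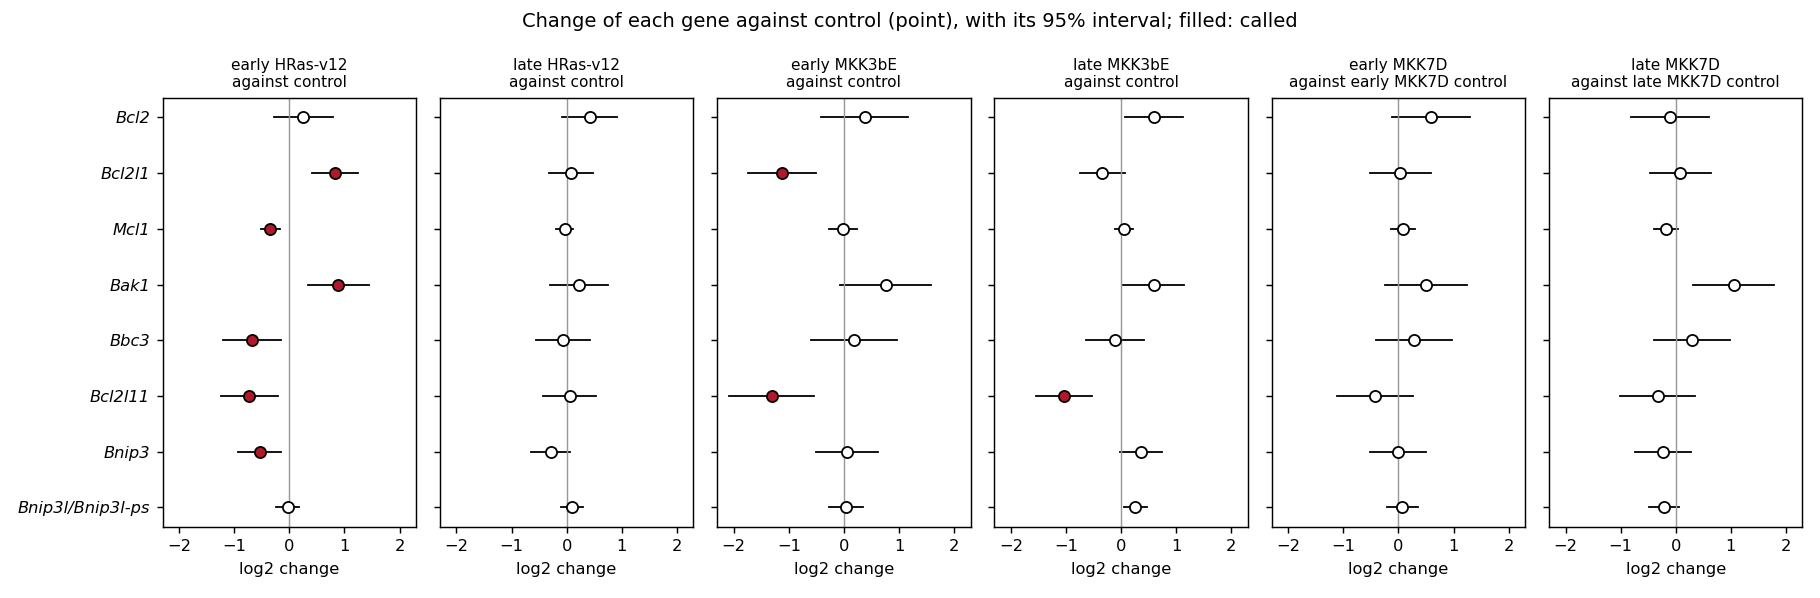
Log2 change of the 7 genes tested and of Bnip3l/Bnip3l-ps in each transgenic group against its control (point), with the 95% interval of the fit (line) and filled points for called changes. Calls number 6 in early HRas-v12, 2 in early MKK3bE and 1 in late MKK3bE hearts, and 0 in the other 3 panels.

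The direct comparisons between times and lines gave 5 calls among the 7 genes. Late against early HRas-v12 hearts called 3, where 11.6% of all genes were called: Bcl2l1 lower, and Mcl1 and Bcl2l11 higher. Bcl2l11 was higher by 0.78 on the log2 scale (SE 0.25, adjusted p = 0.0411), averaging 8266 ± 2819 in late and 4562 ± 2080 in early hearts (SD, n = 6 and 5). This Bcl2l11 call ended in 7 of 11 fits that left out 1 array (adjusted p of 0.0516 to 0.243), those without HRas-v12 female early replicate 1, male early replicate 1 or 2, female late replicate 2 or 4, or male late replicate 1 or 4. Without the 6 arrays that failed the check it was +1.24 (adjusted p = 0.000295). The count of 3 became 5 without the array labelled as HRas-v12 female early replicate 3, 1 without HRas-v12 male early replicate 1 or HRas-v12 male late replicate 1, and 0 without HRas-v12 female early replicate 1, with the replicate block or with only these groups in the fit. Late HRas-v12 against late MKK3bE hearts called 2, where 3.95% of all genes were called. Bcl2l11 was higher by 1.09 (SE 0.25, adjusted p = 0.0113) and Bnip3 lower by 0.65 on the log2 scale (SE 0.19, adjusted p = 0.0438), each with groups that did not overlap, as 3.37% of all genes had. Bnip3 lost this call in 9 of 11 fits that left out 1 array (adjusted p of 0.0601 to 0.216), all but those without HRas-v12 female late replicate 2 or HRas-v12 male late replicate 3, and without the arrays that failed the check (adjusted p = 0.0544). Bcl2l11 lost it without MKK3bE female late replicate 2 (adjusted p = 0.0604), and was +1.41 (adjusted p = 0.000175) without the arrays that failed the check. Early HRas-v12 against early MKK3bE females called 0 of 7 in limma (1.81% of all genes), and 1, Bcl2l1, had an unadjusted p under 0.05, as had 1774 of all genes. Bcl2l1 there was +1.00 (SE 0.33, adjusted p = 0.134). Without the 6 arrays that failed the check it was +1.32, with HRas-v12 female early replicate 1 as the only HRas-v12 array. Late against early MKK3bE females called 0 of 7 and 0.00792% of all genes, and no member but 766 genes had an unadjusted p under 0.05. The late against the early MKK7D change called 0 of 7 and 0.0158% of all genes, and no member but 673 genes had such a p.

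Males and females were compared within each line that had both. Besides Bcl2l1 in early HRas-v12 hearts, no member was called. The late HRas-v12 change gave 0 of 7 in limma, as it gave 0% of all genes, with 4 members at an unadjusted p under 0.05. For Bcl2l11 the difference was +0.99, and +1.64 without the arrays that failed the check, where HRas-v12 male late replicate 4 was the only male HRas-v12 array. The late MKK3bE change gave 0 of 7 against 0.00792% of all genes, with Bcl2l1 alone at an unadjusted p under 0.05 (+1.33, SE 0.40, adjusted p = 0.994). Of all genes, 587 had such a p there. Taken alone, early HRas-v12 males had 5 of 7 members called against control males, where 38.1% of all genes were. Early HRas-v12 females had 0 of 7 against control females, where 0% of all genes were called and 1645 genes had an unadjusted p under 0.05. Of the 2 female arrays, 1 was the array whose Esr1 signal was at the level of controls.

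**Figure D4:**
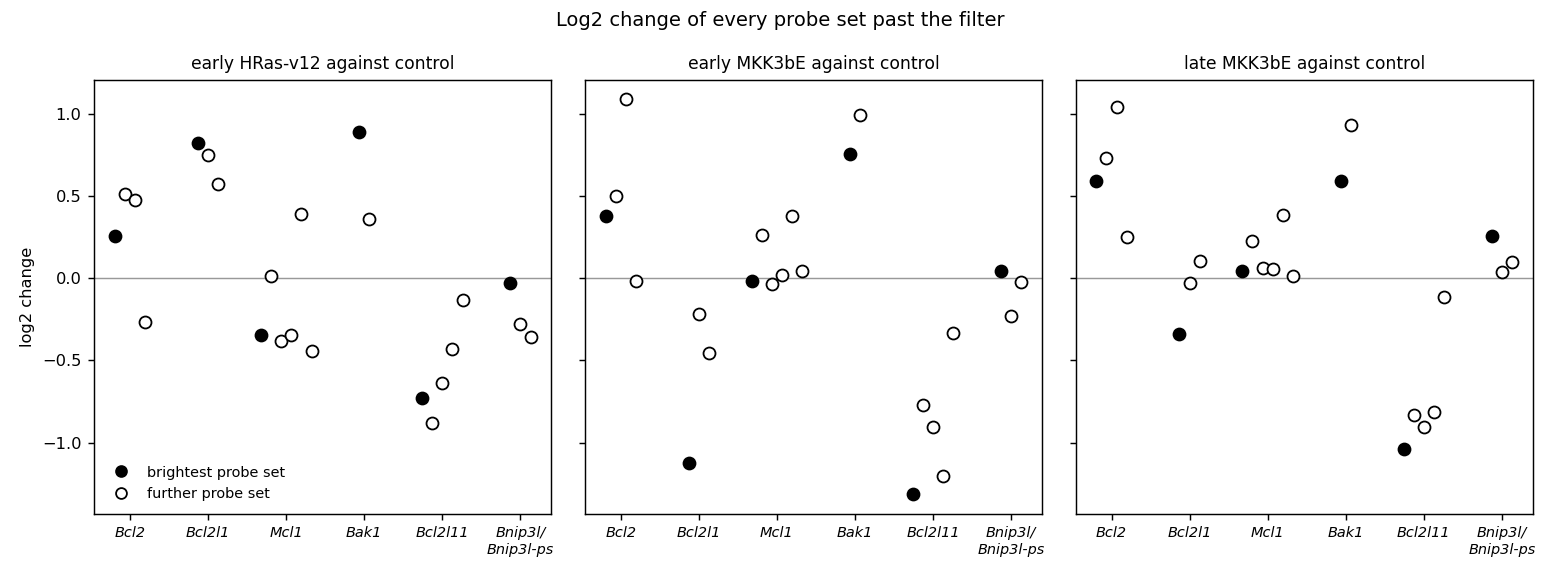
Log2 change of every probe set past the filter for the genes with more than 1 such set, in the 3 comparisons that called a member. Filled points are the brightest set used for the calls and open points the further sets. The Bcl2l11 sets lie below 0 in all 3 panels, and the Mcl1 sets lie on both sides of 0 in early HRas-v12 hearts.

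Other genes of the same pathways were read from lists chosen with earlier results of these data known. Their counts in early HRas-v12 hearts stand against 15.1% of all genes higher and 18.7% lower, and a list whose share is near these shows nothing about that list. Among the pro-apoptotic relatives of the family, 1 of 8 tested rose and 0 fell in early HRas-v12 hearts. That gene was Bid, which links death receptors to the mitochondrial pore (+1.24, SE 0.35, adjusted p = 0.00804), and it was also higher in late HRas-v12 hearts (+1.19, SE 0.33, adjusted p = 0.0277). The one anti-apoptotic relative tested, Bcl2l2, was not called in any transgenic group. Of the other mitophagy receptors with the Pink1 and Parkin arm, 1 of 17 rose and 5 fell in early HRas-v12 hearts, with a median of -0.12 beside -0.04 over all genes. Those that fell included Pink1, the kinase that marks damaged mitochondria (-1.25, SE 0.25, adjusted p = 0.000643), and the receptor Fundc1 (-0.65, SE 0.12, adjusted p = 0.000228). Of the core autophagosome genes 1 of 19 rose and 4 fell, among them Map1lc3a, an LC3 gene (-0.69, SE 0.14, adjusted p = 0.000512). Of the fission and fusion genes 0 of 8 rose and 5 fell, with a median of -0.38. The outer membrane fusion genes Mfn1 (-0.89, SE 0.15, adjusted p = 0.000143) and Mfn2 (-0.67, SE 0.11, adjusted p = 0.000126) and the inner membrane fusion gene Opa1 (-0.73, SE 0.14, adjusted p = 0.000276) were among them.

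Downstream of the membrane, 2 of 16 genes of the caspase cascade rose and 4 fell in early HRas-v12 hearts, and cytochrome c, Cycs, was among those that fell (-0.52, SE 0.11, adjusted p = 0.000860). Of the outer membrane channel list 2 of 7 rose and 3 fell, among them the voltage-dependent anion channel Vdac1 (-0.49, SE 0.12, adjusted p = 0.00256). Of p53 and its targets, 3 of 11 rose and 4 fell. Cdkn1a, which encodes the cell cycle inhibitor p21, rose 4.49-fold (adjusted p = 0.000228), whereas the targets Ccng1 (-0.80, SE 0.12, adjusted p = 5.28e-05) and Sesn1 (-0.74, SE 0.15, adjusted p = 0.000568) fell. Of the targets and members of the hypoxia-inducible factor system, 6 of 16 rose and 8 fell, with a median of -0.42. Pdk1, which limits pyruvate use by mitochondria, fell (-1.01, SE 0.14, adjusted p = 3.01e-05).

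In MKK3bE hearts, where 6.26% of all genes were called early and 10.4% late, the same lists were counted. Of the mitophagy receptor list 1 of 17 rose and 1 fell early, and 2 rose and 3 fell late. Ambra1, a regulator of autophagosome formation, rose early (+1.19, SE 0.25, adjusted p = 0.00606) and late (+0.80, SE 0.17, adjusted p = 0.00361), and the adaptor Sqstm1 rose late (+0.50, SE 0.091, adjusted p = 0.00120). Mul1, a ubiquitin ligase of the outer membrane, fell early (-0.86, SE 0.26, adjusted p = 0.0490) and late (-0.60, SE 0.18, adjusted p = 0.0294), and was also lower in early HRas-v12 hearts (-0.75, adjusted p = 0.00207). Of the fission and fusion genes 0 of 8 rose in MKK3bE hearts, and 2 fell early and 3 late. Opa1 was in both sets, at -0.70 early (SE 0.20, adjusted p = 0.0358) and -0.57 late (SE 0.14, adjusted p = 0.00769). Tspo, an outer membrane protein of the channel list, was 3.22-fold higher early (adjusted p = 0.0334) and 2.39-fold higher late (adjusted p = 0.0135). Tspo was also higher in early (+1.25, adjusted p = 0.00417) and late HRas-v12 hearts (+1.28, adjusted p = 0.0171). In late HRas-v12 hearts 4 of the 8 fission and fusion genes fell and 0 rose, with Mfn1 at -0.63 (SE 0.14, adjusted p = 0.0156). In MKK7D hearts 1 gene of these lists was called, the hypoxia target Bhlhe40, which was higher early (+1.76, SE 0.24, adjusted p = 0.000394). Bhlhe40 was also higher in early (+0.80, adjusted p = 0.00132) and late HRas-v12 (+0.78, adjusted p = 0.0138) and in early (+1.02, adjusted p = 0.0198) and late MKK3bE hearts (+0.92, adjusted p = 0.00182).

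Bak1 and Bcl2l11 had the widest spread of group means among the 7 listed genes that passed the filter, 2.13 and 1.87 on the log2 scale. Over the 13 group means, the genes whose pattern was most like that of Bak1 were Hnrnpab (Pearson r 0.916), Hspb2 (0.899), Psmd13 (0.899), Tuba1a (0.894) and Gatad2a (0.886). For Bcl2l11 they were Pla2g5 (0.939), Pde2a (0.933), Gm16793 (0.932), Iqsec1 (0.931) and Prodh (0.928). The points share arrays and scaling, and the genes were picked as the highest of all genes tested, so these values only describe the likeness.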

How the data were processed

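RNA from mouse left ventricle was measured on 36 Affymetrix mouse genome arrays. The deposited values are linear signals of unit intensity, which the authors made with MAS5 (named in the submitters' processing notes, without a version). Signals ran from 0.4 to 271532.1, and the deposited columns share a trimmed mean of 2500 (2% of probe sets left off at each end). Detection calls were not used. Of 45101 probe sets, 34958 had 1 gene symbol in the platform annotation, 932 several and 9211 none. No array repeated another.

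Values were taken as log2(signal + 32), which understates the change of dim genes. Probe sets in the upper 60% by mean were kept (mean log2 of at least 8.802, a signal of about 414.3), and the brightest per gene was used, also when brightness was judged on the linear scale. Means of 13 groups were estimated together from the 36 arrays with limma (3.58.1, R 4.3.3), its variances moderated along signal strength (23 residual and 4.61 prior degrees of freedom), so groups of 2 or 3 arrays shared 1 estimate of the spread. Benjamini-Hochberg adjustment covered 12627 genes, and every p-value printed comes from limma. With both sexes in a group, female and male differences were averaged. Fold changes are back-transformed from log2 changes. Groups came from the array titles. There were 15 planned comparisons, 6 of them against control. Comparisons within 1 sex and between control sexes were added after the values were seen. HRas-v12 and MKK3bE comparisons share their control arrays.

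The listed genes, the pathway and marker lists and the tests were chosen with earlier results of these data known. All listed genes are named, and up to 3 of each list with the smallest adjusted p among those called, as well as the 5 genes most like each of 2 members. The fit was tested on simulated data. Alternatives were quantile normalization, a larger pseudocount, no filter, the mean of all probe sets, only the groups compared, the replicate number as a block, each array left out in turn and the 6 arrays that failed the label check left out.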

Additional observations from a re-analysis of the deposited data

Results flagged for a closer look

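Several members changed differently between times, lines or sexes, each by a test of the difference in limma. Late less early HRas-v12 hearts differed by -0.74 for Bcl2l1 (adjusted p = 0.0177), by +0.31 for Mcl1 (adjusted p = 0.0146) and by +0.78 for Bcl2l11 (adjusted p = 0.0411) on the log2 scale. Late HRas-v12 less late MKK3bE hearts differed by +1.09 for Bcl2l11 (adjusted p = 0.0113) and by -0.65 for Bnip3 (adjusted p = 0.0438). The male less the female early HRas-v12 change of Bcl2l1 was +1.91 (adjusted p = 0.0211). None of these calls held in every fit that left out 1 array. Of 11 such fits, late less early calls were lost in 2 (Bcl2l1), 2 (Mcl1) and 7 (Bcl2l11). Those of late HRas-v12 less late MKK3bE were lost in 1 (Bcl2l11) and 9 (Bnip3), and the sex difference in 4. The late less early calls were all lost with only the groups compared or with the replicate block. Bnip3 and the sex difference also lost theirs without the 6 arrays that failed the check.

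In a pair of cases all arrays of one line moved one way and all arrays of MKK7D the other way, and the difference was not tested. Mcl1 was below the control mean on 5 of 5 early HRas-v12 arrays and was above the control mean on 3 of 3 early MKK7D arrays, with changes that differed by -0.43. Its early MKK7D change was only +0.08 and was not called (SE 0.11, adjusted p = 0.823 in limma), with ranges that overlapped. The share of all genes with such a pattern was not counted. Bnip3 was above the control mean on 5 of 5 late MKK3bE arrays and below it on 3 of 3 late MKK7D arrays, with changes that differed by +0.59, and neither change was called. Late MKK7D control replicates 8 and 9, which enter that mean, failed the label check. Control replicate 10, which passed it, read 51271, below the 53995 of late MKK7D replicate 15. Without the arrays that failed the check the late MKK7D change of Bnip3 was -0.14, and 1 late control remained.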

How the results depend on the processing

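No called change of a member turned its direction. The member counts that moved by over 1.5 times were these. With the replicate number as a block, the count was 1 (6 as reported) for early HRas-v12, 0 (2) for early MKK3bE, 0 (1) for late MKK3bE, 0 (3) for late against early HRas-v12, 1 (2) for late HRas-v12 against late MKK3bE and 0 (1) for the male against female early HRas-v12 change. The numbers share no stated batch. The median correlation of same-numbered deviations was -0.0102 over 57 pairs (range -0.554 to +0.327), and 3 of 24 arrays correlated best with their own number. With 2 to 3 arrays a group, these values cannot show whether the numbers pair the arrays. No paired analysis was possible for MKK7D because its groups share no numbers. With the mean of all probe sets the counts were 0 in early MKK3bE, 3 in late MKK3bE and 0 for the sex difference. With only the groups compared they were 2 in late MKK3bE, 0 for late against early HRas-v12 and 1 for late HRas-v12 against late MKK3bE. That last comparison also gave 1 with quantile normalization and 1 with no filter. Without the 6 arrays that failed the check the counts were 1 (0) in late MKK7D, 1 (0) for early HRas-v12 against early MKK3bE, 1 (2) for late HRas-v12 against late MKK3bE, 0 (1) for the early and 1 (0) for the late HRas-v12 sex difference. Leaving out 1 array at a time gave 0 to 6 in early HRas-v12, 0 to 1 in early MKK3bE, 0 to 2 in late MKK3bE, 0 to 5 for late against early HRas-v12, 0 to 2 for late HRas-v12 against late MKK3bE and 0 to 1 for the sex difference. Over the members, Bnip3l/Bnip3l-ps and the comparisons together, such fits took 54 values out of the calls and brought 5 in. The 1005 that stayed on their side of the threshold include values never called, so they do not measure how often calls held. By call, losses ran from 1 of 11 fits (such as Mcl1 in early HRas-v12) to 9 of 11 (Bnip3 in late HRas-v12 against late MKK3bE). In early MKK3bE they were 3 of 5 for Bcl2l1 and 4 of 5 for Bcl2l11.

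Counts over all genes moved too. With the block they were 1856 (4267 as reported) in early and 0 (1202) in late HRas-v12 and 178 (790) in early and 195 (1319) in late MKK3bE, 209 (1463) for late against early HRas-v12, 2 (1) for late against early MKK3bE, 96 (228) and 205 (499) for early and late HRas-v12 against MKK3bE and 0 (139) for the early sex difference. With only the groups compared they were 0 in late HRas-v12, 1288 in early MKK3bE, 2262 in late MKK3bE, 372 (17) in early MKK7D, 49 for late against early HRas-v12, 25 for late against early MKK3bE, 5 (2) for the late against early MKK7D change, 21 (185) for early MKK7D controls against control females, 1 and 181 for early and late HRas-v12 against MKK3bE and 29 for the early sex difference. Without the arrays that failed the check they were 157 in late HRas-v12, 123 in early and 428 (0) in late MKK7D, 3290 for late against early HRas-v12, 4 for the MKK7D change, 554 and 814 for HRas-v12 against MKK3bE, 81 for the early and 476 (0) for the late sex difference. Averaging probe sets gave 53 in early MKK7D, a larger pseudocount gave 8 for late against early MKK3bE, and quantile normalization gave 111 for the MKK7D controls. Leaving out 1 array gave 1571 to 4864 in early and 132 to 2507 in late HRas-v12, 132 to 577 in early and 541 to 1179 in late MKK3bE, 3 to 102 in early and 0 to 1 in late MKK7D, 338 to 2716 for late against early HRas-v12, 46 to 264 and 175 to 854 for early and late HRas-v12 against MKK3bE, 4 to 1393 for the early, 0 to 5 for the late HRas-v12 and 0 to 2 for the late MKK3bE sex difference, 0 to 7 for late against early MKK3bE, 0 to 9 for the MKK7D change and 33 to 203 for the MKK7D controls. Averaging probe sets put 63.3% of late HRas-v12 calls on the higher side, against 51% as reported, and using only the groups compared put 47.8% against 64.7% there in early MKK7D, 0% against 25% in early HRas-v12 against MKK3bE and 10.3% against 26.6% in the early sex difference. The causes were not tested, beyond the fewer arrays in each such fit. Arrays number 2 to 3 a group, which limits the precision.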
